A study of Mus musculus with 24 samples.

Results

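The aquaporin genes are the genes of the water and glycerol channels of the cell membrane. The 9 genes described here are Aqp1, Aqp2, Aqp3, Aqp4, Aqp6, Aqp7, Aqp8, Aqp9 and Aqp11, taken by their symbols from the authors' gene tables, where they are 9 of 23679 genes with a symbol of their own. Where a symbol had several entries, the one with the most reads on the transcribed strand was kept. The family's further entries Aqp5, Aqp12 and Mip are given by level only.

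The data are XR-seq libraries, which sequence the short oligomers released when excision repair removes a lesion, so that a read counts repair at a gene and not its RNA. Wild-type female C57BL/6J mice, 6 months old and housed under 12 h light and 12 h dark, were given 10 mg/kg of cisplatin into the peritoneum and sampled 2 h later. There were 12 kidney libraries and 12 liver libraries, with 2 per tissue at each of zeitgeber time (ZT, hours after lights on) 0, 4, 8, 12, 16 and 20. All 24 libraries came from treated mice, and no untreated library was analysed here. Whether a time's 2 libraries stem from different mice is not in the labels, so the p-values measure the spread between libraries, which may be technical.

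Aquaporins form pores through which water crosses membranes, and the aquaglyceroporins Aqp3, Aqp7 and Aqp9 also pass glycerol. In the kidney they serve the return of filtered water to the blood, with Aqp1 in the proximal tubule and the vasopressin-controlled Aqp2 in the collecting duct. In the liver Aqp9 takes up glycerol for glucose synthesis and Aqp8 lies in hepatocyte membranes. RNA polymerase that stalls at an adduct on the transcribed strand (TS) recruits excision repair, so TS reads follow transcription as well as damage, while reads on the non-transcribed strand (NTS) come from repair that does not need the polymerase of that gene.

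All 9 genes are present in RefSeq's annotation of GRCm38.p6. The submitters' processing notes name the mm10 build, and the authors' tables place Aqp1 at chr6:55336299-55348555, Aqp2 at chr15:99579056-99584545, Aqp3 at chr4:41092724-41098183, Aqp6 at chr15:99601400-99605477 and Aqp7 at chr4:41033074-41048136. Aqp8 lies at chr7:123462294-123468003, Aqp9 at chr9:71110659-71163289 and Aqp11 at chr7:97726379-97738247. Aqp1, Aqp2, Aqp6 and Aqp8 are on the plus strand and the others on the minus strand. Gene spans, introns included, ran from 4.08 kb for Aqp6 to 52.6 kb for Aqp9. No other entry of the tables overlaps a member. RefSeq also lists the non-coding gene Gm34765 over Aqp2 and Aqp6, A830021F12Rik over Aqp4 and Gm32714 over Aqp9, so reads there cannot be told from those of the member. Aqp2, Aqp5 and Aqp6 stand in a row with gaps of 6.48 and 6.57 kb, and Aqp7 and Aqp3 are neighbours 44.6 kb apart.

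Because the libraries follow the day, the promoters were read for the E-box CACGTG, to which the clock's activators bind, and for the D-box TTATGTAA of the clock's output factors. RefSeq's table of promoters for GRCm38.p6, each with 250 bases before and 50 after a start site, holds 10 promoters of 8 members. The E-box was found in 3 of the 10, those of Aqp8, Aqp2 and Aqp6, against 7.15% of all 32851 promoters, and the D-box in 0 of the 10, against 0.938%. Both strands were searched, and CACGTG reads the same on either. These 3 promoters are shown, 5′ to 3′ on the gene's own strand, with the E-box in capitals.
Aqp8: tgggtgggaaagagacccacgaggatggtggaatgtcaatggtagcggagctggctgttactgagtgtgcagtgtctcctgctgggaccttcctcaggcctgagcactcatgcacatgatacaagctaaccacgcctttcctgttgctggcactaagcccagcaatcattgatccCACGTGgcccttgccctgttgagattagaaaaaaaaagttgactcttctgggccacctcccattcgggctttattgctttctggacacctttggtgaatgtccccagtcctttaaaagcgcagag
Aqp2: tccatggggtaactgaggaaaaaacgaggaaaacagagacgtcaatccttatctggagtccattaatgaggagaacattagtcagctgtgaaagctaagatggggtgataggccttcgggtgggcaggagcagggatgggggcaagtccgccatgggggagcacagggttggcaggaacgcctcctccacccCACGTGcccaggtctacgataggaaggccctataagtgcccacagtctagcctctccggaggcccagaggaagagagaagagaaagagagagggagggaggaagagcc
Aqp6: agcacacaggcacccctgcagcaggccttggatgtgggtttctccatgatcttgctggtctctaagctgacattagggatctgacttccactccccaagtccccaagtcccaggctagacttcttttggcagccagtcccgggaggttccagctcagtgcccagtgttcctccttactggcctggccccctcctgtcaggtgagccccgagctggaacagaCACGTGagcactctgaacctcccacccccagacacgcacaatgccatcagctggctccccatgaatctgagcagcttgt
The promoter of Aqp8 is chr7:123462044-123462343, with the E-box starting 75 bases before the start site. In Aqp2, at chr15:99578806-99579105, it starts 58 bases before, and in Aqp6, at chr15:99600950-99601249, it starts 29 bases before, counted from RefSeq's start site, which differs from the start of the authors' entry for Aqp6. A match of letters is a description of the sequence and does not show that a factor binds there.

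Kidney libraries held 8718055 to 33716763 reads and liver libraries 12917058 to 28244795. TS reads made up 83.6 to 88.0% of a library's gene reads in kidney and 86.2 to 89.0% in liver. The labelled tissues carried their own markers: summed over 9 proximal tubule genes, TS reads came to 12.3 to 15.9 RPKM in kidney and 0.656 to 1.44 RPKM in liver, and over 9 hepatocyte genes to 2.24 to 3.05 RPKM in kidney and 13.9 to 23.0 RPKM in liver. Not every list kept to an organ. The sum of 7 pericentral hepatocyte genes was 9.00 ± 0.94 RPKM in kidney and 11.4 ± 1.17 RPKM in liver (SD, n = 12 each), with 3 of 7 higher in kidney. That of 6 cholangiocyte genes was 7.88 ± 0.91 RPKM in kidney and 2.80 ± 0.35 RPKM in liver, with 5 of 6 higher in kidney. The first ZT0 liver library stood apart. Its sum over 8 endothelial markers was 5.51 RPKM, against 1.88 to 2.88 RPKM in the other 11 liver libraries, and its hepatocyte sum was the lowest, so called liver results are also given without it. RPKM here is reads per kilobase of gene, scaled to the total reads of the whole library in the usual RPKM unit.

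On the TS, 6 members were higher in kidney (Aqp1, Aqp2, Aqp3, Aqp4, Aqp6 and Aqp7) and 3 were higher in liver (Aqp8, Aqp9 and Aqp11), so that 9 of 9 passed an adjusted p of 0.05 (edgeR quasi-likelihood F test, Benjamini-Hochberg adjustment over all genes). Of all 19273 genes tested, 42.2% were higher in kidney and 31.7% higher in liver. The median difference over the members was 2.15 on the log2 scale, against 0.07 over all genes. In bulk tissue, fewer cells of a type and less repair per cell cannot be told apart.

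Among the water channels of the nephron, Aqp1, which carries most water out of the proximal tubule, had a lowest, median and highest TS level of 1.68, 2.05 and 2.70 RPKM in kidney, against 0.248, 0.438 and 0.922 RPKM in liver. It was 4.43-fold higher in kidney (log2 difference 2.15 ± 0.14 SE, n = 12 libraries each, edgeR adjusted p = 7.40e-11). The 0.922 RPKM was the ZT0 liver library that stood apart, and without it the log2 difference was 2.31. Aqp1 is also a channel of endothelium and red cells. That library had the highest endothelial and erythroid marker sums in liver, 5.51 RPKM over 8 of 8 genes and 1.67 RPKM over 4 of 6. None of these genes was at 0 over the 12 liver libraries together. The part of endothelial and other nucleated cells in that library's Aqp1 value was not tested.

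Aqp2, the channel that vasopressin moves into the apical membrane of principal cells, had 0.476, 0.660 and 1.01 RPKM in kidney, against 0.0161, 0.0327 and 0.0888 RPKM in liver (15.7-fold higher in kidney, log2 3.97 ± 0.21 SE, edgeR adjusted p = 3.79e-12). Aqp3, which lets water and glycerol leave the same cells through the basolateral side, had 1.67, 1.96 and 2.47 RPKM in kidney, against 0.0447, 0.117 and 0.156 RPKM in liver (18.1-fold, log2 4.18 ± 0.14 SE, edgeR adjusted p = 2.50e-15). Aqp6, found in vesicles of acid-secreting intercalated cells, had 0.130, 0.226 and 0.358 RPKM in kidney, against 0, 0.0196 and 0.0521 RPKM in liver (9.76-fold, log2 3.29 ± 0.27 SE, edgeR adjusted p = 3.62e-09). These 3 genes and Aqp1 had every kidney library above every liver library. The liver values of Aqp2 and Aqp6 rest on 59 and 24 TS reads over all 12 libraries. The 5 principal cell markers summed to 2.75 to 4.39 RPKM in kidney and to 0.211 to 0.455 RPKM in liver. The 7 intercalated cell markers summed to 1.88 to 2.48 RPKM in kidney and to 0.393 to 0.716 RPKM in liver. Of those 7, 6 were higher in kidney and 1 was higher in liver.

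Aqp4, best known from brain astrocytes and present in the basolateral membrane of principal cells, differed far less. It had 0.0855, 0.123 and 0.141 RPKM in kidney, against 0.0251, 0.0648 and 0.184 RPKM in liver. The tissues overlapped, and the mean over times was 1.56-fold higher in kidney (log2 0.64 ± 0.16 SE, edgeR adjusted p = 0.00138). The 2 highest of all 24 values were liver libraries of ZT8 and ZT12.

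The glycerol channels parted between the organs. Aqp7, known from adipocytes and the straight part of the proximal tubule, had 0.976, 1.12 and 1.58 RPKM in kidney, against 0.0378, 0.0547 and 0.106 RPKM in liver, and was 19.5-fold higher in kidney (log2 4.29 ± 0.10 SE, edgeR adjusted p = 3.37e-17). Aqp9, the glycerol entry route of hepatocytes, had 0.0281, 0.0529 and 0.108 RPKM in kidney, against 1.68, 2.18 and 2.40 RPKM in liver. It was 37.2-fold lower in kidney (log2 -5.22 ± 0.14 SE, edgeR adjusted p = 1.24e-16), the widest gap between the tissues among the 9. Kidney Aqp9 was higher in replicate 1 at 4 of 6 times, and the hepatocyte markers were higher in replicate 1 of kidney at 6 of 6 times. That order was not particular to Aqp9. Kidney TS reads of Aqp1, Aqp3, Aqp4 and Aqp11 were also higher in replicate 1 at 4 of 6 times, and those of Aqp7 at 5 of 6. Aqp2 and Aqp6 were higher in replicate 2 at 4 of 6 times, and Aqp8, also far higher in liver, at 5 of 6. The part of liver cells or liver DNA in kidney Aqp9 was not tested.

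Aqp8, a channel of hepatocyte membranes that passes water and ammonia, had 0.121, 0.275 and 0.491 RPKM in kidney, against 1.87, 2.96 and 3.56 RPKM in liver, 10.7-fold lower in kidney (log2 -3.42 ± 0.13 SE, edgeR adjusted p = 3.25e-14). Aqp11, which lies in the endoplasmic reticulum and whose loss gives mice cystic kidneys, had 1.13, 1.39 and 1.63 RPKM in kidney, against 1.28, 1.92 and 2.36 RPKM in liver. Its libraries overlapped between tissues, and it was 1.44-fold lower in kidney (log2 -0.52 ± 0.07 SE, edgeR adjusted p = 1.19e-06). Over the 9 genes, 5 had all kidney libraries above all liver libraries, where 15.6% of all genes tested did, and 2 the reverse (Aqp8 and Aqp9), where 11.2% did. The first ZT0 liver library gave the lowest liver value of Aqp4, Aqp8, Aqp9 and Aqp11. Without it 9 of 9 members still passed, with log2 differences of 0.56 for Aqp4, -3.51 for Aqp8, -5.29 for Aqp9 and -0.59 for Aqp11.

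**Figure D1:**
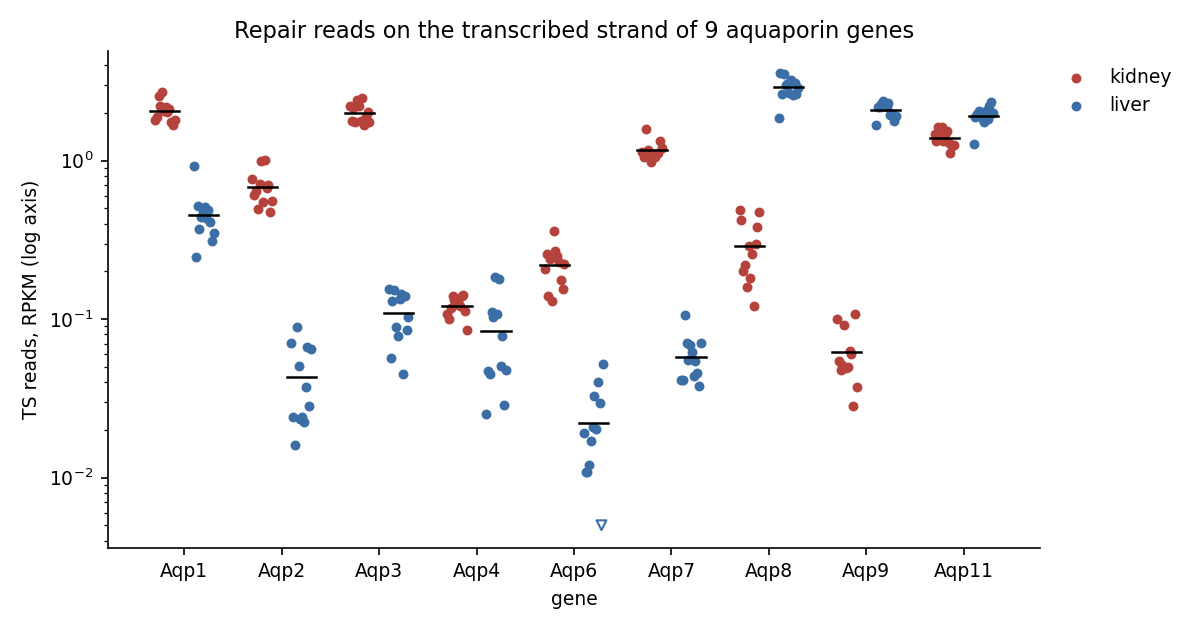
TS reads in RPKM (log axis) of the 9 aquaporin genes, 1 point per library in order of time, kidney left of liver, with the mean as a bar; the open triangle is a library with 0 reads, drawn at the bottom. Aqp1, Aqp2, Aqp3, Aqp6 and Aqp7 have all kidney points above the liver points, Aqp8 and Aqp9 the reverse, and Aqp4 and Aqp11 overlap.

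Within kidney the order of mean TS levels was Aqp1 (2.06 ± 0.32 RPKM, SD, n = 12), Aqp3 (2.01 ± 0.28), Aqp11 (1.39 ± 0.16), Aqp7 (1.16 ± 0.16), Aqp2 (0.683 ± 0.174), Aqp8 (0.291 ± 0.125), Aqp6 (0.219 ± 0.064), Aqp4 (0.121 ± 0.017) and Aqp9 (0.0618 ± 0.0251). Aqp1 was above Aqp3 in 7 of 12 libraries, so these 2 do not differ beyond their spread, nor do Aqp8 and Aqp6 (8 of 12). The remaining neighbours kept their order in 11 or 12 of 12 libraries. Within liver the order was Aqp8 (2.91 ± 0.47 RPKM), Aqp9 (2.09 ± 0.23), Aqp11 (1.93 ± 0.27), Aqp1 (0.456 ± 0.168), Aqp3 (0.109 ± 0.038), Aqp4 (0.0840 ± 0.0545), Aqp7 (0.0580 ± 0.0193), Aqp2 (0.0430 ± 0.0241) and Aqp6 (0.0221 ± 0.0144). From Aqp3 down, and for Aqp9 over Aqp11, the order held in 7 to 10 of 12 libraries. Levels were scaled to gene length and not to the lesions formed in a gene, so both orders are of reads per kilobase. Aqp8 stood above 87.5% of all genes in liver, and Aqp1 above 77.9% in kidney. The further family entries were low, with 0.269 ± 0.097 RPKM in kidney and 0.0409 ± 0.0248 RPKM in liver for Aqp5, 0.113 ± 0.040 and 0.0628 ± 0.0322 RPKM for Aqp12, and 0.0708 ± 0.0240 and 0.0756 ± 0.0379 RPKM for Mip.

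NTS reads of the members moved the same way between tissues as TS reads, with 6 higher in kidney and 3 higher in liver at an adjusted p of 0.05 (33.6% and 32.5% of all 18714 genes tested), with a smaller fitted difference in each but Aqp11 (log2 -0.82 ± 0.07 SE on the NTS); for Aqp4 the strands' differences lay within their SEs of each other. Aqp3 had 0.149, 0.257 and 0.373 NTS RPKM in kidney, against 0.0284, 0.0745 and 0.0993 RPKM in liver, a log2 difference of 1.47 ± 0.15 SE. Aqp9 had 0.0188, 0.0368 and 0.0547 RPKM in kidney, against 0.122, 0.140 and 0.180 RPKM in liver, a log2 difference of -2.35 ± 0.08 SE. The level of Aqp11 was the highest of the members on this strand, 0.959 ± 0.119 RPKM in kidney and 1.37 ± 0.125 RPKM in liver, above 93.1% and 95.5% of all genes. Aqp7 came next in kidney with 0.759 ± 0.063 RPKM, above 90.9% of all genes, and had 0.156 ± 0.049 RPKM in liver.

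The strands of each gene show how far its repair reads leaned to the transcribed one. Reads were not scaled to the lesions formed on each strand or to the sites for them. A strand ratio within a tissue can therefore hold a difference in damage as well as in repair. In kidney all 9 members had more TS than NTS reads in raw reads, where 78.6% of 19330 genes tested were higher on the TS and 11.2% higher on the NTS (edgeR, library as a block). In liver 7 members were tested, of which 6 were higher on the TS (78.0% of 18819 genes) and 1, Aqp7, was higher on the NTS (11.3%). Aqp2 and Aqp6, with 57 and 34 NTS reads in liver, were too low to be tested there. Those directions are of reads as counted: with TMM over the strand columns the all-gene median log2 ratio was -0.06 in place of 2.34 in kidney, and 0.03 in place of 2.51 in liver, and 2 members were called higher and 7 lower on the TS in kidney. In liver that scaling let all 9 members be tested (19800 genes in all), of which 2 were called higher and 6 lower, and Aqp1 was not called. Ratios are therefore read against the all-gene median.

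Aqp1 and Aqp3 were the 2 members above that median in kidney. Their TS reads made up 89.4% and 88.4% of reads on both strands (log2 3.09 ± 0.07 and 2.94 ± 0.09 SE). In liver it was the hepatocyte channels Aqp9 and Aqp8, with 93.4% and 93.0% (log2 3.84 ± 0.06 and 3.76 ± 0.09 SE). Below the median in kidney stood Aqp2 with 73.4%, Aqp6 with 72.6%, Aqp8 with 72.4%, Aqp4 with 71.2%, Aqp9 with 61.1%, Aqp7 with 60.2% and Aqp11 with 58.8%. Below it in liver stood Aqp1 with 81.2%, Aqp4 with 76.6%, Aqp3 with 59.4% and Aqp11 with 58.8%. Aqp7 in liver had TS shares of 17.8 to 40.5% and more NTS than TS reads in all 12 libraries (27.6% over all, log2 -1.39 ± 0.12 SE).

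Tested directly as an interaction of strand and tissue, the TS/NTS ratio differed between kidney and liver in 7 members. It was higher in kidney in 5 (22.2% of 19743 genes) and lower in 2 (35.9% of genes). The log2 differences of the ratio were 2.40 ± 0.21 SE for Aqp3, 2.00 ± 0.13 for Aqp7, 1.87 ± 0.41 for Aqp6, 1.42 ± 0.32 for Aqp2 and 0.97 ± 0.15 for Aqp1, and -3.18 ± 0.16 for Aqp9 and -2.40 ± 0.24 for Aqp8. Each of these 7 genes leaned further to the TS in the tissue where its TS level was higher. Aqp4 (log2 -0.35 ± 0.23 SE, edgeR adjusted p = 0.191) and Aqp11 (0.04 ± 0.11 SE, edgeR adjusted p = 0.786) did not pass, though Aqp4 did without the second ZT0 liver library (-0.51, edgeR adjusted p = 0.0394). Without the first ZT0 liver library the same count held, 7 of 9 for the ratio, with 9 of 9 for the NTS difference between tissues and 7 of 7 for the strands in liver. Over the members the median was 0.97, against -0.14 over all genes.

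**Figure D2:**
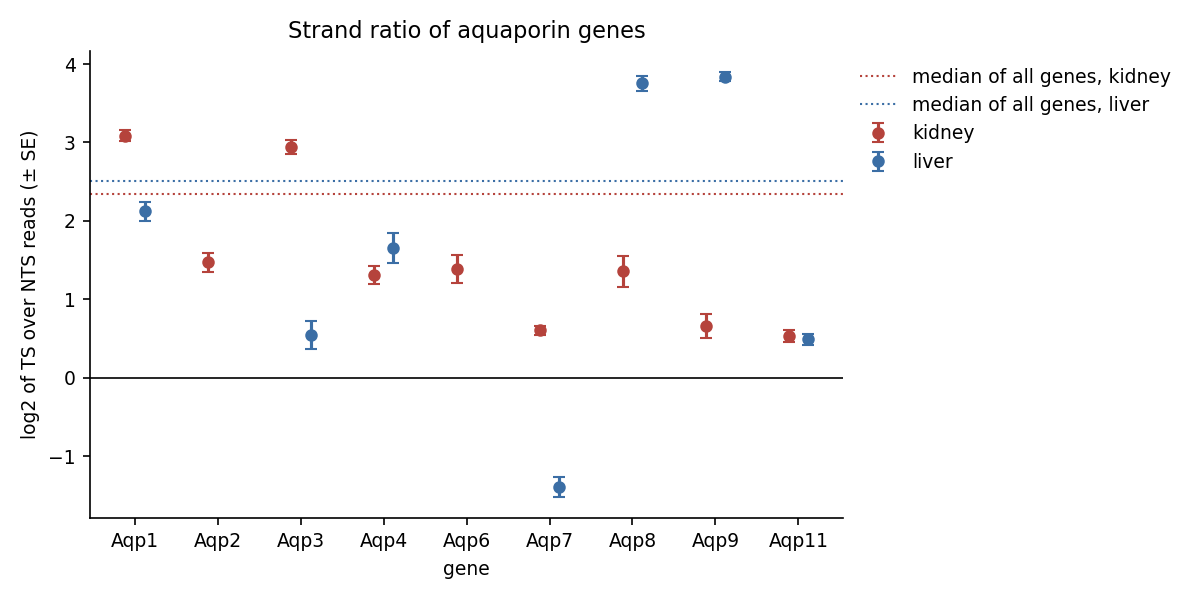
Log2 of TS over NTS reads with its SE for the members tested, kidney left of liver; the solid line marks equal reads and the dotted lines the median of all genes. Aqp1 and Aqp3 in kidney and Aqp8 and Aqp9 in liver lie above the medians, the sign of the 7 other kidney values and of Aqp1, Aqp3, Aqp4 and Aqp11 in liver turns with TMM over the strand columns, and Aqp7 in liver is below 0 under both.

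Reads fell in every listed region beside the genes, and beside 2 of them the level was above 2 RPKM. The authors' drawn-down kidney tables hold 8700000 reads in each replicate 1 library and 20000000 in each replicate 2 library, and list intergenic regions with both strands summed. There the region between Nfx1 and Aqp7 had 2.64 ± 0.41 RPKM (SD, n = 12), against 1.91 ± 0.21 RPKM within Aqp7 on both strands. The region between Clns1a and Aqp11 had 2.61 ± 0.45 RPKM, against 2.35 ± 0.12 RPKM within Aqp11, a difference within the spread between libraries. Of the other regions listed beside members the highest, between Aqp11 and Pak1, had 0.735 ± 0.038 RPKM, and the median intergenic region had 0.122 RPKM. At lower levels, the region between Aqp5 and Aqp6 had 0.313 ± 0.182 RPKM, against 0.327 ± 0.089 RPKM within Aqp6, and the region between Aqp9 and Gm32511 had 0.0908 ± 0.104 RPKM, against 0.0986 ± 0.0232 RPKM within Aqp9. Both differences were within the spread between libraries. Nfx1 and Clns1a lie on the strand opposite to their aquaporin neighbour and are transcribed towards its 3′ end, with gaps of 7.08 and 5.58 kb, so that their transcribed strand continues as the NTS of Aqp7 and of Aqp11. The part of reads from beyond those genes' ends in the NTS levels of Aqp7 and Aqp11 was not tested.

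**Figure D3:**
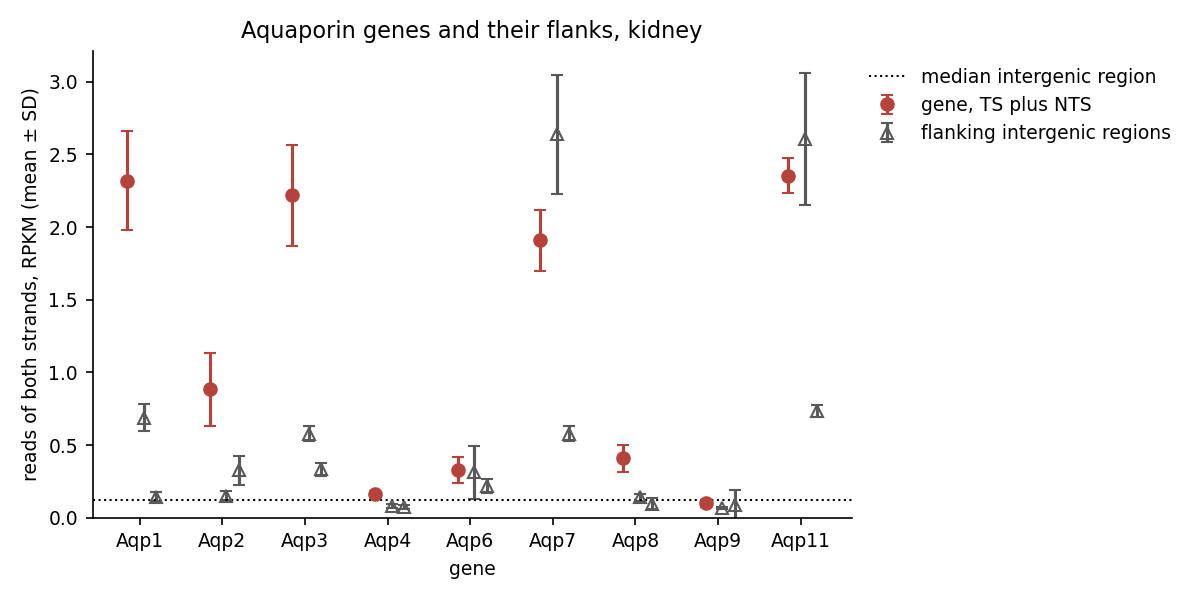
Reads of both strands in kidney, in RPKM (mean ± SD of 12 drawn-down libraries), within each aquaporin gene (circles) and in the intergenic regions listed on either side (triangles), with the median intergenic region as a dotted line. The triangles at 2.64 RPKM beside Aqp7 and 2.61 RPKM beside Aqp11 lie above the means of the genes themselves, with the SDs overlapping at Aqp11.

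Across the day, most aquaporin genes gave no call. A 24 h cosine and sine were fitted per tissue and strand, with the amplitude on the log2 scale, so that a gene at its peak is 2 to the power of 2 amplitudes above its trough. On the kidney TS 1 of 9 members passed an adjusted p of 0.05, Aqp8, where 15.5% of 18446 genes did. On the liver TS 2 of 7 members tested passed, Aqp4 and Aqp9, where 17.4% of 17813 genes did. With so few calls nothing is read from the members' counts as a group. The members' median amplitude was 0.17 in kidney and 0.14 in liver, against 0.13 and 0.14 over all genes.

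Aqp4 had the widest swing of the members, in liver. Its TS levels were 0.0251 and 0.0470 RPKM at ZT0, 0.0451 and 0.111 at ZT4, 0.103 and 0.184 at ZT8, 0.108 and 0.180 at ZT12, 0.0509 and 0.0787 at ZT16, and 0.0287 and 0.0476 at ZT20. The 4 libraries of ZT8 and ZT12 lay above all those of ZT16, ZT20 and ZT0. The fit gave a peak at 9.78 h and a 4.62-fold peak over trough (amplitude 1.10 ± 0.18 SE, edgeR adjusted p = 0.00406). The call held without any 1 of the 12 libraries (edgeR adjusted p 0.00276 to 0.0188) and was lost when the 6 times were compared with no cosine (edgeR adjusted p = 0.104). Replicate 2 was above replicate 1 at 6 of 6 times, and these values rest on 7 to 94 reads per library. Among 6 adipocyte markers, Plin1 passed in liver (amplitude 1.00 ± 0.20 SE, peak 7.70 h, edgeR adjusted p = 0.0106), the other 4 tested did not pass, and the sum of all 6 was 2.71 RPKM at ZT8 and 1.41 RPKM at ZT20, with none at 0. That sum was higher in replicate 2 at 5 of 6 liver times. Liver TS reads of Aqp7, the channel known from adipocytes, did not pass (amplitude 0.30, peak 5.12 h, edgeR adjusted p = 0.414). They were higher in replicate 1 at 4 of 6 times. The part of fat cells in the Aqp4 values was not tested.

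In kidney the rhythm of Aqp4 did not pass. Its levels were 0.108 and 0.0995 RPKM at ZT0, 0.117 and 0.140 at ZT4, 0.133 and 0.124 at ZT8, 0.131 and 0.122 at ZT12, 0.139 and 0.141 at ZT16, and 0.113 and 0.0855 at ZT20 (amplitude 0.17 ± 0.09 SE, edgeR adjusted p = 0.398). The difference of the 2 rhythms, tested as the interaction of tissue with cosine and sine, passed for Aqp4 alone among the members (size 0.94 ± 0.20 SE, edgeR adjusted p = 0.0447), where 1.12% of 18889 genes did. When each of the 24 libraries was left out in turn, the call was kept in 8 fits and lost in 16, those without any of the kidney libraries but the second of ZT20, and those without the second ZT8, second ZT12, either ZT16 or first ZT20 liver library (edgeR adjusted p 0.0275 to 0.122 over the 24). Liver NTS reads of Aqp4 gave an amplitude of 0.02 ± 0.20 SE (edgeR adjusted p = 0.999), at 4 to 21 reads per library.

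Aqp9, the liver's glycerol channel, had a small swing at high depth. Its liver TS levels were 1.68 and 2.18 RPKM at ZT0, 2.18 and 2.27 at ZT4, 2.40 and 2.22 at ZT8, 2.20 and 2.33 at ZT12, 1.95 and 1.98 at ZT16, and 1.78 and 1.91 at ZT20. The 4 libraries of ZT8 and ZT12 lay above those of every time but ZT4. The fit put the peak at 8.45 h with 1.25-fold between peak and trough (amplitude 0.16 ± 0.04 SE, edgeR adjusted p = 0.0325), on 1139 to 2967 reads per library. Without the first ZT0 library the amplitude was 0.14 and the edgeR adjusted p 0.0129, but 8 of the 12 fits that left out 1 library lost the call, those without the second of ZT4, the first of ZT8 or any of ZT12, ZT16 and ZT20 (edgeR adjusted p up to 0.102). The summed hepatocyte markers were also highest at ZT8. The sum of 9 was 22.3 RPKM at ZT8, against 17.2 RPKM at ZT0 and 18.9 RPKM at ZT20, with 2 of 9 called and none at 0. The ZT0 value is the mean of 13.9 RPKM in the first library, which stood apart, and 20.4 RPKM in the second. The sum of 7 pericentral genes was 12.6 RPKM at ZT8 and 10.0 RPKM at ZT0 (9.24 RPKM in the first library and 10.8 RPKM in the second). Of these, 3 of 7 were called (Cyp2e1 is in both lists). All 5 called genes peaked from ZT4 to ZT12, and their part in the Aqp9 values was not tested.

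Aqp8 peaked in kidney at night's end, though its level there is low. Its kidney TS levels were 0.491 and 0.424 RPKM at ZT0, 0.201 and 0.219 at ZT4, 0.159 and 0.291 at ZT8, 0.182 and 0.259 at ZT12, 0.121 and 0.296 at ZT16, and 0.379 and 0.474 at ZT20. The 4 libraries of ZT20 and ZT0 lay above the 8 of the other times. The fit gave a peak at 22.2 h and 2.33-fold between peak and trough (amplitude 0.61 ± 0.15 SE, edgeR adjusted p = 0.0293), on 10 to 66 reads per library. In the authors' drawn-down counts the amplitude was 0.47 and the edgeR adjusted p 0.117, and 5 of the 12 fits without 1 library lost the call, those without the first of ZT0, ZT8 or ZT12 or either of ZT20 (edgeR adjusted p up to 0.0875). In liver, where the level is high, the amplitude of Aqp8 was 0.06 ± 0.09 SE (edgeR adjusted p = 0.885). The difference between the tissues did not pass in edgeR (edgeR adjusted p = 0.148). It passed in DESeq2 (DESeq2 adjusted p = 0.0257), which gave no adjusted p for the kidney rhythm of Aqp8 by itself.

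Aqp1 in kidney came close to the threshold. Its levels were 1.81 and 1.88 RPKM at ZT0, 2.55 and 2.23 at ZT4, 2.70 and 2.05 at ZT8, 2.18 and 2.04 at ZT12, 2.11 and 1.76 at ZT16, and 1.68 and 1.80 at ZT20, with the lowest library at ZT20 and the highest at ZT8. The fitted amplitude was 0.20 ± 0.05 SE with a peak at 7.55 h (edgeR adjusted p = 0.0502). It passed with the replicate number as a block (edgeR adjusted p = 0.0123), with no filter on low counts (edgeR adjusted p = 0.0420), in DESeq2 (adjusted p = 0.0198), which gave Aqp8 no adjusted p, and without either ZT0, the second ZT8 or the first ZT16 library (edgeR adjusted p 0.0273 to 0.0499). The sum of 9 proximal tubule markers was 15.3 and 15.1 RPKM at ZT4 and ZT8, against 12.9 and 13.0 RPKM at ZT0 and ZT20, with 2 of 9 called. That of 8 endothelial markers was 3.16 RPKM at ZT8 and 2.23 RPKM at ZT20, with 5 of 8 called. Of these 5, 4 peaked from ZT4 to ZT12 and 1 at ZT16 or later. No marker of either list was at 0, and the part of those cells in the Aqp1 values was not tested. The collecting duct genes Aqp2 (amplitude 0.23 ± 0.12 SE), Aqp3 (0.10 ± 0.07 SE) and Aqp6 (0.16 ± 0.155 SE) did not pass in kidney, with edgeR adjusted p of 0.367, 0.576 and 0.724. Neither did Aqp7 (0.11 ± 0.07 SE), Aqp9 (0.22 ± 0.19 SE) or Aqp11 (0.13 ± 0.05 SE), with edgeR adjusted p of 0.464, 0.681 and 0.215. In liver Aqp1, Aqp3, Aqp7, Aqp8 and Aqp11 did not pass, with amplitudes of 0.06 to 0.30, and without the first ZT0 library Aqp1 had an amplitude of 0.32 (edgeR adjusted p = 0.0762), against 0.10 with it.

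**Figure D4:**
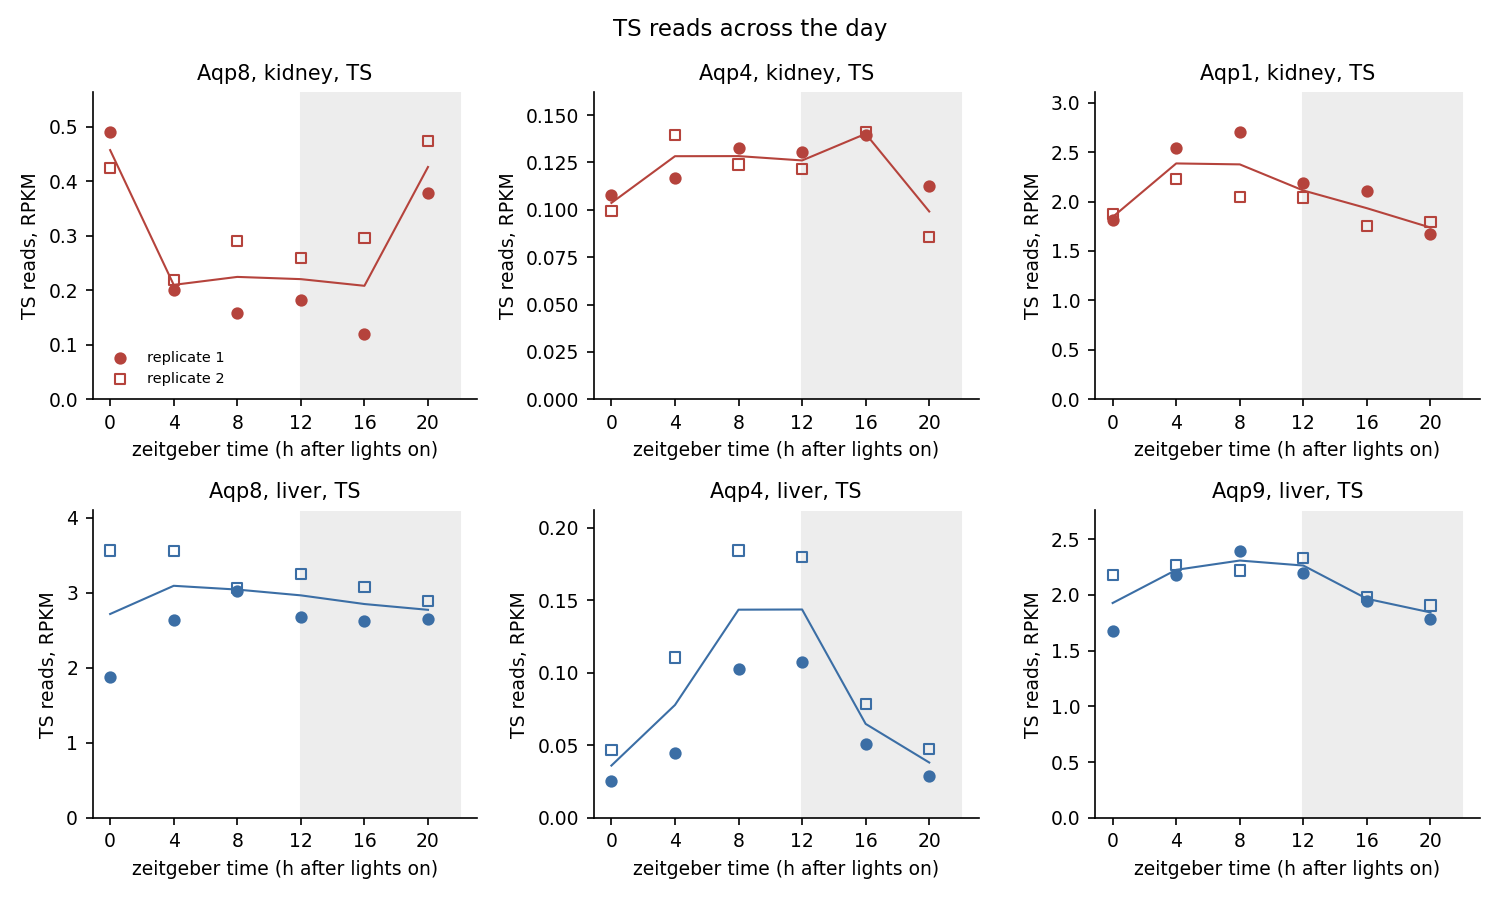
TS reads in RPKM against zeitgeber time, with filled circles for replicate 1, open squares for replicate 2, a line through the means and grey from ZT12 for the dark phase. Aqp8 in kidney is highest at ZT20 and ZT0, Aqp4 in liver at ZT8 and ZT12, and Aqp8 in liver and Aqp4 in kidney show no called rhythm.

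On the NTS, 1 of 8 members tested passed in kidney, Aqp11 (2.38% of 18074 genes), and 1 of 7 in liver, Aqp7 (3.94% of 17148 genes). Kidney NTS levels of Aqp11 were 1.09 and 0.982 RPKM at ZT0, 0.879 and 0.875 at ZT4, 0.725 and 0.840 at ZT8, 0.972 and 0.902 at ZT12, 1.07 and 1.13 at ZT16, and 0.980 and 1.07 at ZT20. The 2 libraries of ZT8 were the lowest of the 12. The amplitude was 0.36 ± 0.07 SE and the peak 19.3 h (1.64-fold, edgeR adjusted p = 0.0103), relative to NTS reads. Without the first or the second ZT8 library the edgeR adjusted p was 0.0697 or 0.0850. Taken relative to all reads of the library, an alternative chosen after seeing the data, the amplitude was 0.21 and the edgeR adjusted p 0.128. The NTS sizes of kidney libraries ran from -0.29 to 0.29 (log2) around their library totals. The neighbour Clns1a, whose transcribed strand is the strand of these reads, had its own kidney TS peak at 19.3 h (amplitude 0.16 ± 0.03 SE, edgeR adjusted p = 0.0175). That time is not particular to it: the other nearest genes of members called on the kidney TS, Lcmt1, Nol6, Kctd1 and Adam10, peaked at 19.5, 19.8, 18.9 and 17.7 h. On the kidney TS, Aqp11 itself had its fitted peak at 6.2 h without passing.

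Aqp7 in liver had NTS levels of 0.0977 and 0.123 RPKM at ZT0, 0.223 and 0.171 at ZT4, 0.207 and 0.190 at ZT8, 0.212 and 0.203 at ZT12, 0.122 and 0.115 at ZT16, and 0.110 and 0.103 at ZT20. The 6 libraries of ZT4, ZT8 and ZT12 lay above the 6 of the other times. The amplitude was 0.48 ± 0.10 SE with a peak at 8.35 h (1.95-fold, edgeR adjusted p = 0.0126), on 19 to 76 reads per library, and 0.47 without the second ZT20 library (edgeR adjusted p = 0.0615). Without the first ZT0 library it was 0.45 (edgeR adjusted p = 0.0112). The neighbour Nfx1, transcribed on that strand, had a liver TS amplitude of 0.10 ± 0.03 SE with a peak at 7.85 h and did not pass (edgeR adjusted p = 0.102). The adipocyte markers given above for Aqp4 peaked in sum at the same times, and their part was not tested. These NTS reads were higher in replicate 1 at 5 of 6 times, and the adipocyte sum in replicate 2 at 5 of 6.

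**Figure D5:**
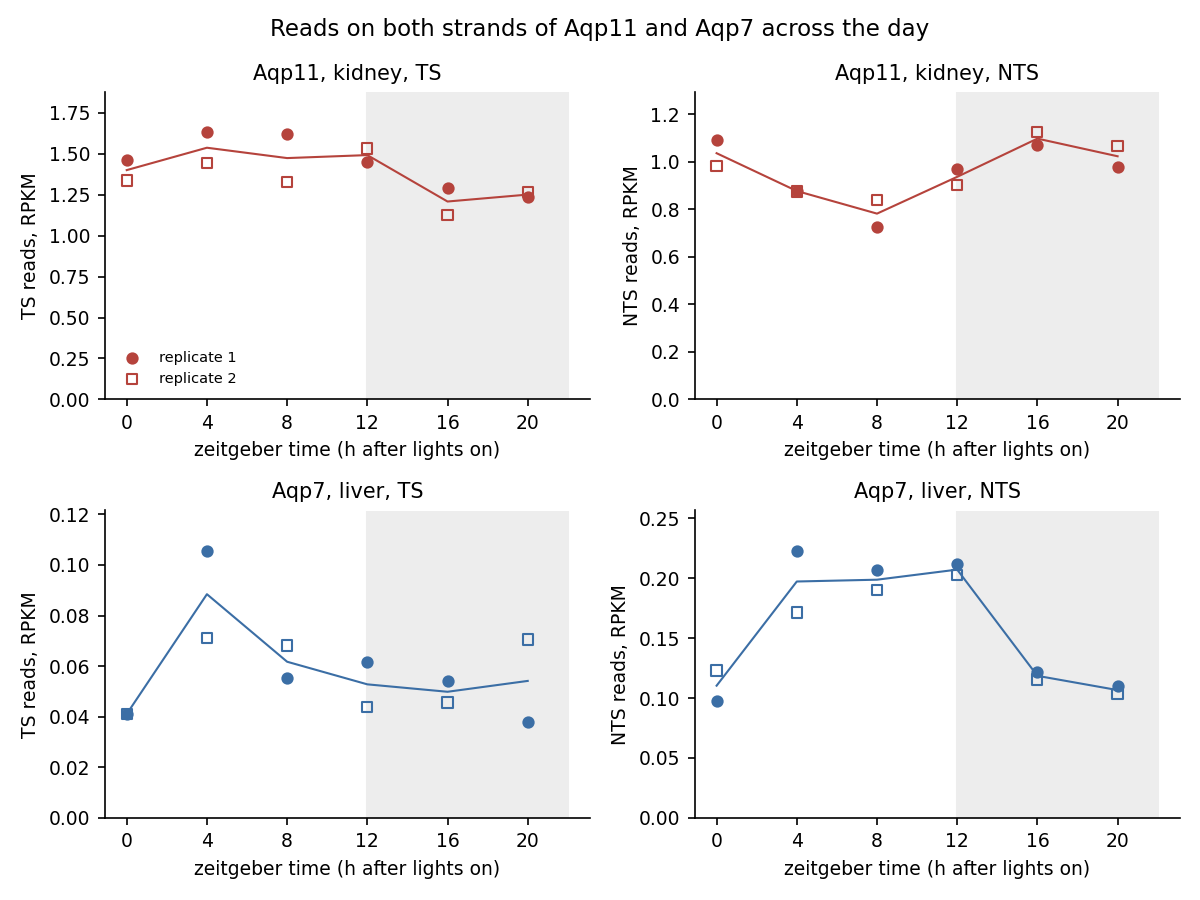
Reads in RPKM against zeitgeber time on the TS (left) and NTS (right) of Aqp11 in kidney and Aqp7 in liver, with filled circles for replicate 1, open squares for replicate 2, a line through the means and grey from ZT12 for the dark phase. The NTS of Aqp11 is lowest at ZT8, and the NTS of Aqp7 is at least 0.171 RPKM at ZT4, ZT8 and ZT12 and at most 0.123 RPKM at the other times.

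The genes whose TS pattern over 12 libraries was most like that of a called member were ranked by Pearson's r of log2 CPM. For kidney Aqp8, among 16463 genes averaging 20 reads or more, they were B930041F14Rik (r = 0.960), Prr5l (0.908), of the mTOR complex, and Igsf9b (0.902). For liver Aqp4, among 15744 genes, they were the NMDA receptor subunit Grin3b (0.946), the mitochondrial carrier Slc25a29 (0.946) and the replication licensing factor Cdc6 (0.944). For liver Aqp9 they were Crcp (0.983), the choline dehydrogenase Chdh (0.976) and Nr1h4 (0.975), the bile acid receptor. In the rhythm test of the same tissue, B930041F14Rik, Crcp and Nr1h4 did not pass (edgeR adjusted p = 0.160, 0.102 and 0.0879), and the other genes named did. These libraries share tissue, time and depth, and with so many genes ranked, high values are the top of a long list.

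Genes that work beside the aquaporins were counted from 3 lists. Among 16 genes of urine concentration tested on the TS, 14 were higher in kidney and 1 in liver, where 42.2% and 31.7% of all genes were, with a median log2 difference of 4.00. The sodium-proton exchanger Slc9a3 (log2 5.91 ± 0.13 SE) and the potassium channel Kcnj1 (5.53 ± 0.13 SE) were among those higher in kidney, with the sodium-potassium-chloride transporter Slc12a1 (4.30 ± 0.08 SE). Of 15 genes of vasopressin action and channel trafficking, 8 were higher in kidney and 3 in liver, to be read against the same shares. The 8 include the vasopressin receptor Avpr2 (log2 4.27 ± 0.20 SE) and the prostaglandin receptor Ptger3 (3.51 ± 0.09 SE). Of 13 genes of glycerol and triglyceride handling, 1 was higher in kidney, the lipoprotein lipase Lpl (2.24 ± 0.11 SE), and 9 in liver, among them Pparg (-2.82 ± 0.07 SE), the glycerol phosphate dehydrogenase Gpd2 (-1.20 ± 0.05 SE) and Mgll (-1.43 ± 0.06 SE), a lipase that releases glycerol. The median differences of the last 2 lists were 0.17 and -0.44, against 0.07 over all genes.

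On the kidney TS, 3 of 15 trafficking genes passed (Ptger3, Myo5b and Vamp2), as did 1 of 16 urine concentration genes, Slc12a3, and 3 of 13 glycerol genes (Pnpla2, Pck1 and Gpd2), beside 15.5% of all genes. The SNARE protein gene Vamp2, part of the machinery that fuses Aqp2 vesicles, had an amplitude of 0.29 ± 0.07 SE and a peak at 6.74 h, and the motor gene Myo5b had 0.23 ± 0.04 SE and 19.9 h. The glucose synthesis gene Pck1 had 0.20 ± 0.05 SE and 6.76 h, and the triglyceride lipase gene Pnpla2 0.20 ± 0.04 SE and 5.96 h. On the liver TS, where 17.4% of all genes passed, edgeR called 0 of 14 trafficking genes (2 at an unadjusted p under 0.05), 1 of 15 urine concentration genes, Slc12a3, and 1 of 13 glycerol genes, Fbp1, an enzyme of glucose synthesis (amplitude 0.21 ± 0.04 SE, peak 9.47 h).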

How the data were processed

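The authors deposited, per the file headers, tables of read counts per gene on each strand with RPKM values beside them, and for kidney further tables drawn down to 8700000 reads in replicate 1 and 20000000 in replicate 2 that also list intergenic regions. Coordinates are on mm10, per the submitters' processing notes, and the aligner is not given in the sources used here. Per the labels' protocol, the antibodies were against CPD or BPDE adducts, while the treatment was cisplatin. Of 25239 entries, 24203 carry a single symbol, 154 carry several and 882 carry none (2.76% of TS and 2.89% of NTS reads), and 22637 of 23679 symbols matched RefSeq's gene table.

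Deposited counts were tested with edgeR 4.0.16 in R 4.3.3 (TMM, filterByExpr, quasi-likelihood F test) with Benjamini-Hochberg adjustment over all genes tested at 0.05. Rhythms were cosine and sine terms of 24 h. Tissues were compared as the mean over 6 times, and strands with the library as a block and a single size for both strands, without TMM. Levels are RPKM from the counts and library totals. Intergenic RPKM was likewise computed, from the summed reads of a region, its length and the drawn-down total. An SE comes from the fitted difference and its F value. Intervals and p-values cover counting error and the spread between libraries only.

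The members were described in every comparison. Other genes named are the 3 most correlated with a member called on the TS (mean of at least 20 reads), the nearest genes, and up to 4 called genes of each list by adjusted p. Members and lists were chosen with earlier results of these data known. The tests across genes were first tested on simulated data. Alternatives were scaling, the filter on low counts, DESeq2 1.42.0, a replicate block, a comparison of times with no cosine, a length trend removed, the drawn-down counts and leaving out each library. The values of a single gene of the urine concentration list are not reported here.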

Additional observations from a re-analysis of the deposited data

Results flagged for a closer look

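The difference between tissues was itself tested for the rhythm and for the strand ratio, and 8 results passed. The Aqp4 TS rhythm differed between kidney and liver with a size of 0.94 (log2, edgeR adjusted p = 0.0447), and the direction of each tissue's levels by time is given above. The log2 TS/NTS ratio of kidney minus that of liver was 0.97 for Aqp1 (edgeR adjusted p = 3.89e-07), 1.42 for Aqp2 (0.000256), 2.40 for Aqp3 (8.83e-13), 1.87 for Aqp6 (0.000168) and 2.00 for Aqp7 (2.11e-16), all higher in kidney. It was -2.40 for Aqp8 (edgeR adjusted p = 2.31e-11) and -3.18 for Aqp9 (6.29e-20), lower in kidney. The sign of these 7 was the same with TMM over the strand columns, where 5 were again called higher and 2 lower in kidney. With 2 libraries per tissue and time, no such group held the 4 needed for a test of whether a single library lies far from its group; the first ZT0 liver library is set against the other 11 of its tissue in the results, with no test.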

How the results depend on the processing

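Called tissue differences and called differences of the ratio kept their directions and calls under the alternatives run; the ratio difference of Aqp11, not called, was -0.01 to 0.09 when 1 library was left out. With TMM over the strand columns, the TS against NTS difference turned in kidney to -0.76 for Aqp2, -0.93 for Aqp4, -0.83 for Aqp6, -1.66 for Aqp7, -0.89 for Aqp8, -1.59 for Aqp9 and -1.73 for Aqp11, and in liver to -0.10 for Aqp1 (edgeR adjusted p = 0.440), -1.65 for Aqp3, -0.53 for Aqp4 and -1.73 for Aqp11, since that scaling removes the excess of TS reads over the whole library. It left 9144 genes higher and 9513 lower on the TS in kidney and 9415 and 9263 in liver, where 87.6% and 87.3% of called genes were higher on the TS before. With library totals and no TMM, 64.1% of called genes were higher in kidney on the TS (57.1% before) and 76.5% on the NTS (50.8% before), and with TMM over the strand columns 53.0% of called ratios were higher in kidney (38.2% before). Rhythm calls depended most on the model, and for these the cause was not tested. Comparing times with no cosine left 197 kidney TS, 17 kidney NTS, 532 liver TS and 269 liver NTS genes, and 0 members in each at an adjusted p of 0.05. On the kidney TS, 2858 genes and 1 member were called, and 2 members with no filter and 0 in the drawn-down counts. On the kidney NTS, 431 genes were called, 1201 with no filter, 218 in the drawn-down counts and 218 with the library total as size, which left 0 members. On the liver TS 2 members were called, and 1 with no filter; on the liver NTS 675 genes were called, and 1134 with no filter. For the difference of rhythms 212 genes and 1 member were called, and 691 genes and 2 members by DESeq2. The replicate numbers do not pair the samples by the labels. The differences of replicate 1 from replicate 2 were correlated between times. These correlations were 0.0918 to 0.578 in kidney (median 0.399, 15 pairs of times) and -0.172 to 0.467 in liver (median 0.116), not all above 0.1. At 6 of 6 times in each tissue the strongest of them with another time was positive, a hint from the data and not the design. With the replicate number as a block, kidney TS calls were 4818 genes and 2 members, kidney NTS calls 1467 genes, and calls of the difference of rhythms 442 genes. Leaving out 1 library in turn gave 1092 to 3948 genes and 0 to 2 members on the kidney TS, 89 to 1107 and 0 to 1 on the kidney NTS, 1734 to 4495 and 1 to 2 on the liver TS, 403 to 1024 and 0 to 1 on the liver NTS, and 114 to 402 and 0 to 1 for the difference of rhythms.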
